A study of Danio rerio with 30 samples.

Results

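FinTRIM genes (symbols beginning with ftr and a number) encode a branch of the tripartite motif (TRIM) proteins that is found in fish and has expanded there into a large, clustered gene family. The members were taken by name alone, as every symbol of that form in the array annotation. This gave 54 genes on 55 probe sets, of the 19260 genes with a probe set of their own name, and the brighter of the 2 probe sets of ftr46 was used. In the RefSeq annotation of the assembly GRCz12tu 53 of the 54 were found by Entrez number, all but ftr81. That annotation holds 72 ftr symbols, 18 of which had no probe set carrying that symbol alone. Of the 53, 52 are protein coding and ftr53 is a transcribed pseudogene. They lie on 12 chromosomes, with 27 on chromosome 2, 6 on chromosome 3 and 4 on chromosome 15.

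TRIM proteins carry a RING domain that attaches ubiquitin to other proteins, followed by B-box and coiled-coil domains, and many FinTRIM proteins end in a B30.2 domain, which in other TRIM proteins binds targets such as viral proteins. The family was first recognised among transcripts that a virus induced in trout leukocytes, and several members are induced by interferon or act in antiviral defence. ftr82, ftr83 and ftr84 belong to an older, less duplicated group that is kept across fish species, and zebrafish ftr83 is known for antiviral activity through type I interferon. Individual roles of the other members are not stated here.

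The study measured RNA on 30 Affymetrix ZebGene 1.0 ST arrays from AB strain zebrafish, using everything anterior to the gills. The control (SC) groups came from embryos that received a standard morpholino against human beta-globin, and the knockdown (KD) groups from embryos that received a morpholino against a splice donor site of grb10a, placed by the design at coding exon 3. The treatment protocol also lists a morpholino at a site numbered 4 and does not say which of them these pools received, so the site rests on the design text. All groups had been injected once into the yolk with phenol red and messenger RNA for the blue fluorescent protein nCerulean, and weakly fluorescent embryos had been removed. Fish were taken at 5, 10, 15, 20 or 30 days post fertilisation (dpf), which gave 10 groups of 3 arrays, each array from a pool of 5 fish. grb10a encodes an adaptor of insulin and insulin-like growth factor receptors, and KD against SC asks what its knockdown in the embryo changes in the transcripts of the head at each age. Nothing in the labels says that the pools of a group came from separate clutches, so p-values measure only the spread between pools.

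Values are log2 signals, differences are KD minus SC on that scale with their standard error (SE) from limma, and adjusted p-values are Benjamini-Hochberg values over all 19260 genes. "Rose" and "fell" stand for an adjusted p under 0.05. A signal of 6.06, below which the lowest 33.3% of all genes lay by their mean, is used as the background limit, because detection calls were not used here. No fold is given for a pair of groups that both lay under it. A brighter probe set need not mean a more abundant transcript, so members are set against the limit and not against each other. FinTRIM genes are close copies, and a probe set may read more than 1 of them: 2 further probe sets are annotated with 2 FinTRIM symbols each, ftr29 with ftr35 and ftr29 with ftr37. In RNA from a mixed tissue, fewer cells of a type and less RNA per cell cannot be told apart.

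Array medians over the full set of probe sets ran from 5.51 to 5.63. Of 24 measured head tissue markers 21 were above the limit in at least 1 of the 10 groups, where 77.0% of all genes were. The SC arrays at 5 dpf stood apart in carrying RNA of internal organs: the mean over 32 pancreas, liver and intestine markers was 9.50 ± 0.05 (SD, n = 3) there, 5.57 ± 0.36 in KD at 5 dpf, and between 5.05 and 6.50 in the 8 other groups. At 15 dpf 10 of the 32 rose in KD and 0 fell, and at 20 dpf 3 rose and 0 fell. The means at 15 dpf were 5.75 ± 0.45 in SC and 6.50 ± 0.44 in KD. The probe set of grb10a was 1.01 higher in KD at 5 dpf (adjusted p = 3.59e-07) and passed at none of the 4 older ages. Blocking a splice site need not lower a transcript's total signal, and the labels do not place the probes, so the signal of grb10a is no check on the labels.

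Most FinTRIM genes gave little signal in the head. Of the 54 members 11 (20.4%) lay above the limit in at least 1 of the 10 groups, and 4 (7.41%) lay above it in all 10. Among all genes 77.0% were above in at least 1 group and 56.3% in all. Of the 60 genes named trim and a number, 37 were above in at least 1 group, and of the 15 bloodthirsty-related TRIM genes (btr), another multigene TRIM family of fish, 3 were. The 11 members are ftr67, ftr82, ftr83 and ftr38, above the limit in all 10 groups, ftr46 in 9, ftr95 in 8, ftr35 and ftr50 in 4 each, ftr86 in 3, ftr30 in 2 and ftr63 in 1. The median member lay between 4.51 and 4.80 in the 10 groups, where the median gene lay between 6.58 and 6.83. Single groups held from 5 members above the limit, at 10 dpf in SC and in KD, to 10 in KD at 30 dpf.

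**Figure D1:**
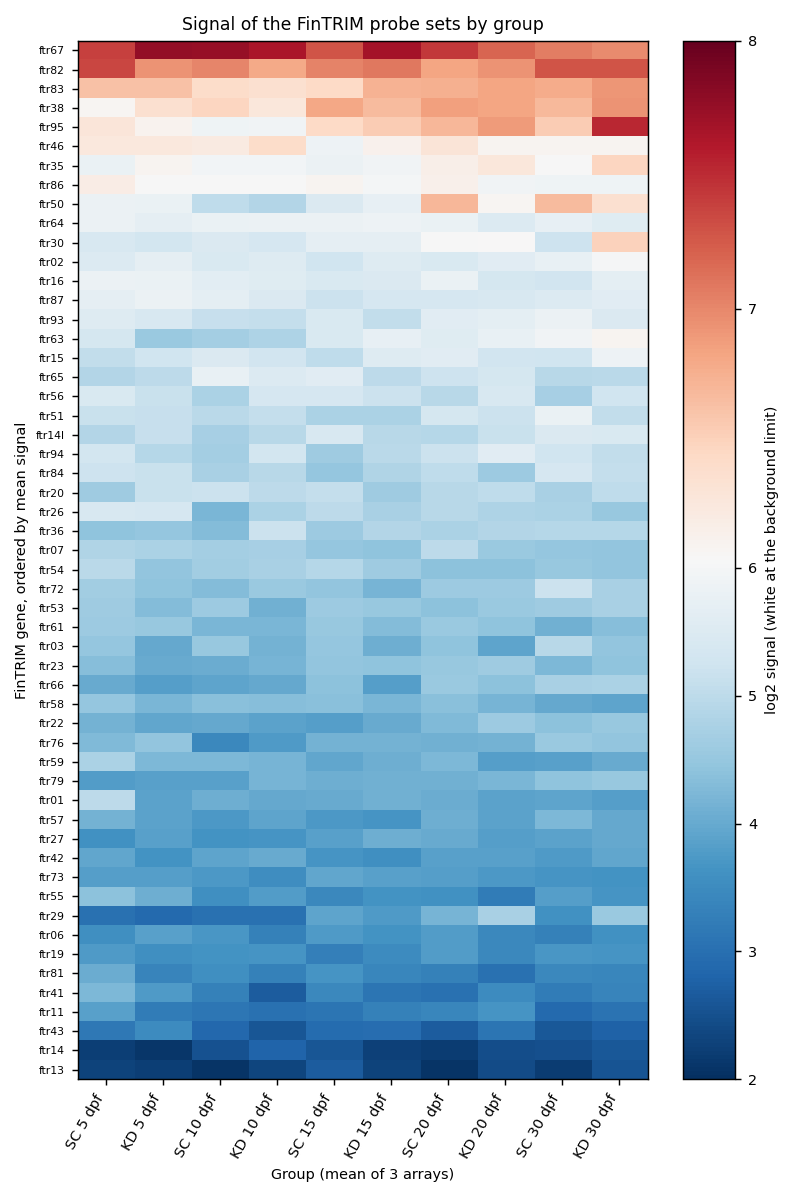
Mean log2 signal (colour) of the 54 FinTRIM genes (rows, ordered by mean signal) in the 10 groups (columns, mean of 3 arrays each). White marks the background limit of 6.06, and the colour scale is steeper above the limit than below it. The rows with red lie near the top of the plot, and 43 of 54 genes stay blue in all 10 groups.

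The probe set of ftr67 (13084976) had a mean of 7.42 over all arrays and lay above the limit on all 30. That of ftr82 (13205244) had a mean of 7.05 and was also above on all 30 arrays. ftr83 (13195549) had a mean of 6.65 and was above on 28 arrays, and ftr38 (13093497) a mean of 6.60 on 27 arrays. The third gene of the older group, ftr84, had a mean of 4.95 and was under the limit in all groups. Close to the limit, ftr63 reached it in KD at 30 dpf with 6.11, and the highest group of ftr02, also KD at 30 dpf, stayed just under it at 6.03. The 5 lowest members, ftr41, ftr11, ftr43, ftr14 and ftr13, had means of 3.37, 3.27, 2.92, 2.43 and 2.32.

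The distance between a member's lowest and highest group mean ranged from 0.31 for ftr86 to 1.84 for ftr29, with a median of 0.77, and it exceeded 1 in 14 of 54. The same distance was not computed for all genes, so these values are not read as a trait of the family. The median SD within groups was 0.28 for the members and 0.19 for all genes. The widest were ftr29 (2.91 in KD at 5 dpf to 4.75 in KD at 20 dpf), ftr50 (4.88 in KD at 10 dpf to 6.71 in SC at 20 dpf), ftr95 (5.90 in SC at 10 dpf to 7.53 in KD at 30 dpf) and ftr63 (4.54 in KD at 5 dpf to 6.11 in KD at 30 dpf).

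Between KD and SC, few members passed at any age. At 5 dpf 1 of 54 members rose and 3 fell, where 5.47% of all genes rose and 6.51% fell. At 10 dpf 1 rose and 0 fell (1.76% and 0.914% of all genes), and at 15 dpf 1 rose and 2 fell (9.18% and 2.84%). At 20 dpf 1 rose and 0 fell (14.5% of all genes passed in either direction), and at 30 dpf 2 rose and 0 fell (0.363% and 0.639%). The 11 calls came from 9 genes, of which ftr67 and ftr29 passed at 2 ages each and none at 3. Passing at 1 age and not at another is no test of a difference between the ages, which the F test described further on addresses. Of the 11 calls, that of ftr30 at 30 dpf was the only one that held in each fit without 1 array of its groups. Of the 9 genes, 4 were above the limit in at least 1 group. As a share of the family, 1 member is 1.85%. This lies under the share of all genes that rose at 5, 15 and 20 dpf, and close to the share that rose at 10 dpf. The 3 falls at 5 dpf (5.56%) and the 2 at 15 dpf (3.70%) lie near the share of all genes, and the 2 rises at 30 dpf (3.70%) lie above it. Of the 48 members under the limit by their mean, 2, 1, 2, 1 and 2 passed at the 5 ages. Of all genes under the limit 9.58%, 1.18%, 4.94%, 6.70% and 1.31% did. Of the trim genes 5, 1, 1, 7 and 1 of 60 passed at the 5 ages, and of the btr genes 3, 0, 2, 0 and 0 of 15.

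**Figure D2:**
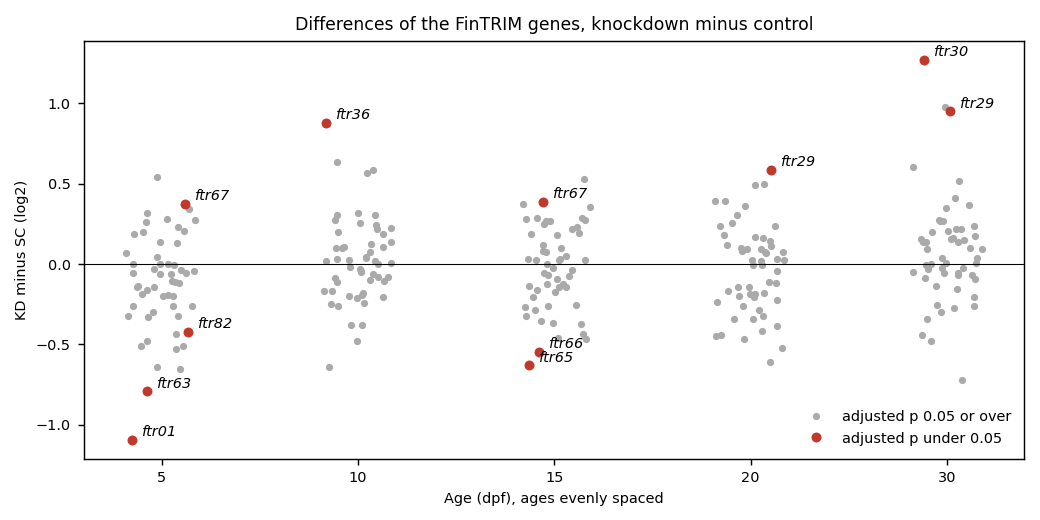
Difference between KD and SC (log2, vertical axis) of each of the 54 FinTRIM genes at each age (horizontal axis), 1 point per gene with small sideways offsets. Red points are the 11 calls with adjusted p under 0.05, with their names, and grey points are the others; differences ran from -1.09 (ftr01 at 5 dpf) to 1.27 (ftr30 at 30 dpf).

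The 2 members that rose at 30 dpf, ftr30 and ftr29, lie in a run of neighbours on chromosome 2. In GRCz12tu the genes ftr38, ftr36, ftr35, ftr30, ftr95, ftr29 and ftr65 follow each other in this order with less than 300 kb between neighbouring members. This run was singled out after the values were seen, so the figures on it are a description. At 30 dpf the 3 KD arrays lay above all 3 SC arrays in 5 of its 7 genes and in none of the 47 other members. Of all genes 6.91% were higher without overlap. In the other direction 4 of 54 members, all outside the run, were lower without overlap, where 14.4% of all genes were. The median difference was 0.41 in the run and 0.01 in the other members, whose highest was 0.61.

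ftr30 (probe set 13093442) had 5.11, 5.17 and 5.41 in the SC arrays at 30 dpf and 6.71, 6.07 and 6.73 in the KD arrays. The KD arrays were all above the limit and the SC arrays all under it. The gene rose by 1.27 (SE 0.23, adjusted p = 0.00323), at least 1.36-fold when the SC arrays are set to the limit. It passed when each of the 6 arrays was left out in turn (adjusted p 0.00168 to 0.0330). At the 4 younger ages its differences lay between -0.11 and 0.03, and the difference varied with age (F test over the ages, adjusted p = 0.0069).

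ftr29 (13093450) was under the limit in all groups. At 30 dpf its SC arrays read 3.59, 3.84 and 3.41 and its KD arrays 4.91, 4.30 and 4.49. It rose by 0.95 (SE 0.20, adjusted p = 0.0112). The call ended without SC replicate 1, SC replicate 3 or KD replicate 1 (adjusted p = 0.0520, 0.0882 and 0.119). At 20 dpf the SC arrays read 4.24, 4.17 and 4.08 and the KD arrays 5.19, 4.68 and 4.39, a rise of 0.59 (SE 0.20, adjusted p = 0.0451) with no overlap. That call held only without KD replicate 3, and ended when SC replicate 1, 2 or 3 or KD replicate 1 or 2 was left out (adjusted p 0.0718 to 0.273). Before 20 dpf the groups overlapped, and the F test over the ages gave an adjusted p of 0.00809.

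ftr95 (13093433) read 6.80, 6.35 and 6.51 in SC at 30 dpf and 7.95, 7.33 and 7.30 in KD. All KD arrays were above all SC arrays, by a mean of 0.98 (SE 0.25) or 1.97-fold. The adjusted p of 0.0630 missed the threshold. It passed when dim genes were left out of the test (adjusted p = 0.0456) and with an intensity trend and robust spread (adjusted p = 0.0471). When each of the 6 arrays was left out in turn it passed in none of the fits (adjusted p 0.0715 to 0.354).

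ftr35 (13093475) read 5.96, 5.96 and 6.26 in SC at 30 dpf and 6.50, 6.54 and 6.37 in KD, a difference of 0.41 (SE 0.23, adjusted p = 0.516). ftr38 read 6.72, 6.60 and 6.77 in SC and 6.83, 6.96 and 7.00 in KD, a difference of 0.24 (SE 0.15, adjusted p = 0.589). In both the KD arrays lay above the SC arrays by less than the test required. ftr36 (0.01) and ftr65 (0.04) lay at almost equal means in SC and KD at that age.

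The probe set annotated with ftr29 and ftr37 together (13093457) read 3.93, 3.57 and 3.64 in SC at 30 dpf and 5.25, 4.44 and 4.31 in KD, all under the limit. Its difference was 0.95 (SE 0.28), with an adjusted p of 0.121 in a fit over all 75212 probe sets. The probe set annotated with ftr29 and ftr35 (13085651) was above the limit in all 10 groups, from 6.48 in SC at 30 dpf to 9.09 in SC at 5 dpf. It passed in no contrast of KD with SC. At 30 dpf it read 6.53, 6.25 and 6.64 in SC and 7.05, 7.15 and 7.05 in KD, without overlap. That difference was 0.60 (SE 0.40, adjusted p = 0.651 in the fit over all probe sets). From 5 to 30 dpf it fell by 2.61 in SC (adjusted p = 1.74e-05) and by 1.52 in KD (adjusted p = 0.00488), in the fit over all probe sets. How far the probe sets of the run read each other's transcripts was not tested. Beside these values, the mean over the internal organ markers ran from 5.29 to 5.69 in the SC arrays at 30 dpf and from 5.59 to 6.51 in the KD arrays, and 0 of its 32 genes passed. With that mean as a covariate ftr30 kept its call at 30 dpf (adjusted p = 0.0112) and ftr29 did not (0.82, adjusted p = 0.0758).

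**Figure D3:**
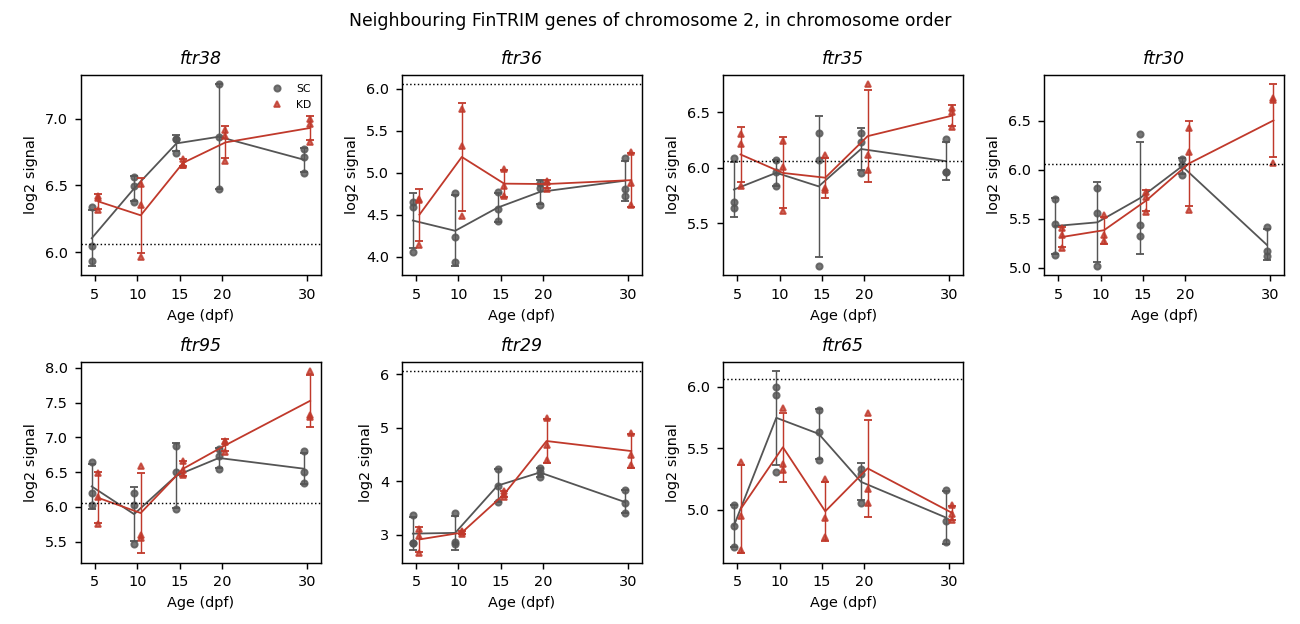
Log2 signal (vertical axis, a separate range in each panel) by age in dpf (horizontal axis) of the 7 neighbouring FinTRIM genes of chromosome 2. Grey circles are single SC arrays and red triangles single KD arrays, lines join the group means, bars are 1 SD and the dotted line is the limit of 6.06. At 30 dpf the KD triangles of ftr38, ftr35, ftr30, ftr95 and ftr29 lie above the SC circles, and those of ftr36 and ftr65 lie among them.

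ftr03 (13083704), in another run on chromosome 2 with ftr02, ftr06 and ftr07, was the 1 member that fell in the mean over the 5 ages (1.39% of all genes fell). The mean difference was -0.46 (SE 0.08, adjusted p = 0.00208). Its KD mean was lower at all 5 ages, by 0.51, 0.38, 0.43, 0.52 and 0.48 from 5 to 30 dpf, and its arrays did not overlap at 4 of them, all but 15 dpf. At 20 dpf, for example, the SC arrays read 4.43, 4.53 and 4.34 and the KD arrays 3.69, 3.82 and 4.22. No single age passed on its own (adjusted p 0.0617 to 0.306), and leaving out each of the 30 arrays in turn kept the call (adjusted p 0.00114 to 0.0048). The F test over the ages did not pass (adjusted p = 0.985). With the internal organ mean of each array as a covariate the mean difference was -0.51 and missed the threshold (adjusted p = 0.0711). This contrast includes 5 dpf, where that covariate sets SC and KD far apart. The fit therefore cannot decide whether the call depends on organ RNA. Without 5 dpf, and without the covariate, the mean difference of ftr03 was -0.45 and passed (adjusted p = 0.0104). All its groups were under the limit, from 3.91 to 4.95. In the same contrast ftr29 (0.26, adjusted p = 0.115) and ftr36 (0.27, adjusted p = 0.182) came next by p.

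ftr67, also on chromosome 2, was higher in KD at 5 and 15 dpf. At 5 dpf it read 7.50, 7.37 and 7.30 in SC and 7.72, 7.73 and 7.84 in KD, which is a rise of 0.37 (SE 0.11, adjusted p = 0.0288). At 15 dpf it read 7.05, 7.47 and 7.34 in SC and 7.68, 7.55 and 7.79 in KD, which is a rise of 0.39 or 1.31-fold (SE 0.11, adjusted p = 0.0268). At 20 dpf the order was turned, with SC at 7.40, 7.51 and 7.38 and KD at 7.24, 7.22 and 7.12, a difference of -0.24 that did not pass (adjusted p = 0.173). At 10 and 30 dpf the arrays overlapped, and the F test over the ages passed (adjusted p = 0.00575). The call at 5 dpf ended without SC replicate 2 or 3 or KD replicate 2 or 3 (adjusted p 0.0573 to 0.112), and the call at 15 dpf without SC replicate 1 or KD replicate 1 or 3 (adjusted p 0.0829 to 0.177).

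The 3 members that fell at 5 dpf did so beside the internal organ markers, of which 31 of 32 fell at that age. ftr01 (13079458) read 4.68, 5.49 and 4.81 in SC and 4.38, 3.49 and 3.82 in KD at 5 dpf, a fall of 1.09 (SE 0.28, adjusted p = 0.0101). Its mean of 4.99 in SC at 5 dpf was the highest of the 10 groups, and the KD mean at 5 dpf lay among those of the 8 older groups. The call ended without SC replicate 2 or KD replicate 2 (adjusted p = 0.0879 and 0.0724).

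ftr63 (13094277), on chromosome 20, read 5.42, 5.11 and 5.48 in SC and 4.02, 4.78 and 4.82 in KD, a fall of 0.79 (SE 0.23, adjusted p = 0.0206). The call ended without SC replicate 1 or 3 or KD replicate 1 (adjusted p 0.0683 to 0.150). ftr82 read 7.51, 7.12 and 7.43 in SC and 7.14, 6.91 and 6.74 in KD, with 1 KD array just above the lowest SC array. It fell by 0.42, or 1.34-fold (SE 0.14, adjusted p = 0.0399). The call ended without SC replicate 1 or 3 or KD replicate 2 or 3 (adjusted p 0.0989 to 0.192). Of all members 9 were lower in KD without overlap and 1 was higher at 5 dpf, where 13.6% and 15.0% of all genes were, and the median difference was -0.11 for the members and 0.02 for all genes. With the internal organ mean of each array as a covariate none of the 4 members passed at 5 dpf, and 2 of all 19260 genes did. In that fit the difference of ftr82 was 0.19 and that of ftr67 was 0.10. The slope of the organ mean comes from arrays within groups. It is carried over the gap between SC (9.50) and KD (5.57) at 5 dpf. That fit therefore cannot decide whether the calls at 5 dpf depend on organ RNA, and its differences there are not usable estimates. The part of the internal organs in the differences at 5 dpf cannot be told apart from the knockdown in these arrays.

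**Figure D4:**
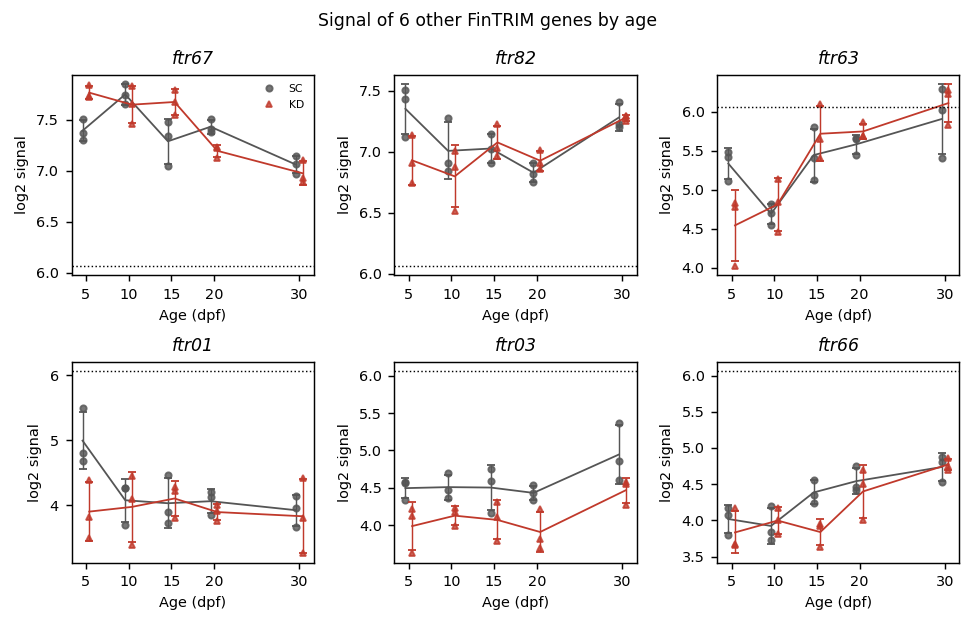
Log2 signal (vertical axis, a separate range in each panel) by age in dpf (horizontal axis) of ftr67, ftr82, ftr63, ftr01, ftr03 and ftr66. Grey circles are single SC arrays and red triangles single KD arrays, lines join the group means, bars are 1 SD and the dotted line is the limit of 6.06. ftr03 lies lower in KD at all 5 ages, and ftr01 is high only in SC at 5 dpf, at 4.99.

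At 10 dpf ftr36 (13093484), a gene of the run on chromosome 2, read 4.23, 3.93 and 4.76 in SC and 5.32, 5.76 and 4.49 in KD. The arrays overlapped, and the rise of 0.88 (SE 0.24, adjusted p = 0.0457) ended without SC replicate 1 or 2 or KD replicate 1 or 2 (adjusted p 0.0708 to 0.317). At 15 dpf ftr65 (13093425), of the same run, read 5.41, 5.63 and 5.81 in SC and 4.93, 4.78 and 5.25 in KD, a fall of 0.63 (SE 0.20, adjusted p = 0.0422). ftr66 (13083100) read 4.57, 4.24 and 4.36 in SC and 3.96, 3.64 and 3.93 in KD, a fall of 0.55 (SE 0.17, adjusted p = 0.0372). Neither overlapped, and both were under the limit. The call of ftr65 ended without SC replicate 2 or 3 or KD replicate 1 or 2 (adjusted p 0.0722 to 0.166), and that of ftr66 without any array but SC replicate 2 (adjusted p 0.0523 to 0.163). The calls of ftr65, ftr66 and ftr67 at 15 dpf stand beside the internal organ markers, of which 10 of 32 rose in KD. With the organ mean as a covariate fewer members passed at 15 dpf, as given below, and the cause was not tested.

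Across the ages 7 of 54 members had the same sign at all 5, and the share of all genes that did was not computed. The F test took the 4 differences from 5 dpf. Among genes under the limit by their mean it passed for 18.9%, and for 3 of 48 members. In total it passed for 4 of 54 members, where 31.7% of all genes passed. Besides ftr67, ftr30 and ftr29 these include ftr63 (adjusted p = 0.0455), which no longer passed without 5 dpf (adjusted p = 0.977) or in 18 of the 30 fits that left out 1 array (up to 0.196, without KD replicate 1 at 5 dpf). In the older group ftr83 differed by -0.04 to 0.29 at the 5 ages with adjusted p of 0.26 or over, and ftr84 by -0.44 to 0.36 with adjusted p of 0.173 or over. A p that misses the threshold does not show that they were equal.

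Between 5 and 30 dpf more members passed, though as a share fewer than among all genes. In SC 9 rose and 10 fell (19 of 54, where 51.0% of all genes passed), and in KD 13 rose and 3 fell (16 of 54, 50.6%). In SC 16.7% of the members rose and 18.5% fell, where 34.1% and 16.8% of all genes did. In KD 24.1% of the members rose and 5.56% fell, where 30.6% and 20.0% of all genes did. The falls in SC thus lie near the share of all genes, and the other counts lie under it. Most members are dim, and among all genes the dim ones passed less often. Of the 48 members under the limit by their mean, 35.4% passed in SC and 25% in KD. Of all genes under it 44.6% and 37.3% did. Of the 6 members above the limit by their mean, 33.3% passed in SC and 66.7% in KD. Among all genes above it 54.2% and 57.2% did. Whether low signal accounts for the lower share of members was not tested. The 2 comparisons use separate arrays. Of the members that rose, 6 did so in both treatments (66.7% of the SC list and 46.2% of the KD list): ftr03, ftr29, ftr38, ftr63, ftr66 and ftr79. The shares of all genes that rose or fell in both treatments were not computed. The overlap is therefore not read as a trait of the family. With 10 dpf as the start ftr29, ftr63 and ftr66 rose in both treatments, ftr38 in KD alone and ftr79 in SC alone. ftr03 then passed in neither (adjusted p = 0.0538 in SC and 0.149 in KD). Of the members that fell from 5 to 30 dpf, ftr67 alone did so in both (10.0% and 33.3%). It fell by 0.33 in SC (SE 0.11, adjusted p = 0.0160) and by 0.79 in KD (SE 0.11, adjusted p = 2.18e-06).

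From 5 dpf the largest rises were in KD, but several of these values depend on the arrays at 5 dpf, so those from 10 dpf stand beside them. ftr29 rose by 1.65 (SE 0.20, adjusted p = 1.53e-07) in KD and by 0.59 (SE 0.20, adjusted p = 0.0146) in SC, both from groups under the limit, and the SC call ended without SC replicate 2 or 3 at 5 dpf or SC replicate 2 at 30 dpf (adjusted p 0.0650 to 0.0763). From 10 dpf it rose by 1.52 in KD and by 0.58 in SC (adjusted p = 0.0162). The probe set that carries the symbols of both ftr29 and ftr35 moved the other way with age, as given above. ftr63 rose by 1.57 (SE 0.23, adjusted p = 2.56e-06) in KD, from 4.02, 4.78 and 4.82 to 5.83, 6.22 and 6.27, and by 0.57 (SE 0.23, adjusted p = 0.0371) in SC. From 10 dpf its rises were close in size, from a mean of 4.69 to 5.91 in SC (adjusted p = 6.35e-05) and from 4.81 to 6.11 in KD (adjusted p = 4.05e-05). ftr95 rose by 1.40 (SE 0.25, adjusted p = 5.8e-05) in KD, where its difference in SC was 0.26 (adjusted p = 0.417). From 10 dpf it rose in both, by 0.65 in SC (adjusted p = 0.0333) and by 1.61 in KD (adjusted p = 1.09e-05). ftr30 rose by 1.19 (SE 0.23, adjusted p = 0.000146) in KD and differed by -0.19 in SC (adjusted p = 0.513), and from 10 dpf the values were 1.12 and -0.23 (adjusted p = 0.00034 and 0.431). ftr38 rose by 0.59 in SC and by 0.55 in KD (SE 0.15 each, adjusted p = 0.00164 and 0.00295), whereas from 10 dpf it rose in KD by 0.65 (adjusted p = 0.000711) and its difference of 0.22 in SC did not pass (adjusted p = 0.227). Differences between SC and KD in these changes with age were not tested as such. The arrays at 30 dpf are the ones used for KD against SC at that age, so these values are not separate support for it.

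The 10 falls in SC started from the arrays at 5 dpf that held internal organ RNA. Among them ftr01 fell by 1.07 (SE 0.28, adjusted p = 0.00259), ftr59 by 0.90 (SE 0.22, adjusted p = 0.0011) and ftr11 by 0.95 (SE 0.30, adjusted p = 0.00998). With 10 dpf as the start, where the organ markers had a mean of 5.09 in SC, 13 members rose and 3 fell in SC and the same numbers in KD (51.8% and 43.9% of all genes passed), and ftr01, ftr59 and ftr11 did not pass (differences of -0.15, -0.37 and -0.22). The members that fell from 10 dpf on were ftr58, ftr65 and ftr67 in both treatments. For the start at 10 dpf the shares of all genes were not split by direction. ftr50 (13172083), on chromosome 3, rose from 10 to 30 dpf by 1.63 in SC (adjusted p = 0.000297) and by 1.50 in KD (adjusted p = 0.000936), against 0.86 from 5 dpf in SC, where its call ended without SC replicate 1 or 2 at either age (adjusted p 0.0805 to 0.180). Without SC replicate 1 at 5 dpf the 19 members called in SC became 12.

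Genes of the interferon pathway, to which several FinTRIM genes are known to respond, were followed beside the family. Of 13 measured interferon ligands and receptors 1 fell at 5 dpf (ifngr1, a receptor chain for interferon gamma, by 0.58) and 1 rose at 15 dpf (crfb13, a cytokine receptor chain, by 0.83), and none passed at 10, 20 or 30 dpf. Of 29 sensors, relays and transcription factors 5 rose and 1 fell at 15 dpf. They include stat2, which carries the type I interferon signal to the nucleus and rose by 1.22 (adjusted p = 1.72e-05), the relay ticam1 (0.77), the sensor dhx58 (0.72) and irf3 (0.55). At 20 dpf 1 rose (irf7, by 0.59), and at 5, 10 and 30 dpf none passed. The 5 rises at 15 dpf lie above the 9.18% of all genes that rose. The 1 call at 20 dpf lies under the 14.5% of all genes that passed. For the ligands and receptors, the 1 fall at 5 dpf and the 1 rise at 15 dpf lie near the shares of all genes (6.51% and 9.18%).

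Of 46 interferon-stimulated genes 2 fell at 5 dpf, none passed at 10 dpf, 3 rose at 15 dpf, 6 rose and 1 fell at 20 dpf, and 1 fell at 30 dpf. Of all genes 6.51% fell at 5 dpf, 9.18% rose at 15 dpf and 0.639% fell at 30 dpf. At 20 dpf 14.5% of all genes passed in either direction. The counts at 5, 15 and 20 dpf thus lie near or under the shares of all genes and do not set the list apart. At 15 dpf the risen genes were ifi44g (0.84), apol1 (0.73) and the ADP-ribosyltransferase parp12a (0.37). At 20 dpf ifi44a1 (0.95), the antiviral GTPase mxe (0.75) and the immunoproteasome subunit psmb9a (0.43) rose, and apol1 fell by 0.80. At 30 dpf the 1 interferon-stimulated gene that passed was parp9, which fell by 1.15 (adjusted p = 0.00151). Whether the rises of ftr30 and ftr29 at that age depend on interferon was not tested. Over the list the median difference at 30 dpf was 0.08, where all genes had -0.04. The mean over the list was 5.55 ± 0.06 in SC and 5.60 ± 0.05 in KD at that age.

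From 5 to 30 dpf the shares of the marker lists that passed are to be read against the 51.0% of all genes in SC and 50.6% in KD. By direction, 34.1% of all genes rose and 16.8% fell in SC, and 30.6% rose and 20.0% fell in KD. Of 22 lymphocyte and thymus markers 15 rose and 2 fell from 5 to 30 dpf in SC and 16 rose and 2 fell in KD, and their mean went from 5.37 to 6.59 in SC and from 5.24 to 6.58 in KD. Of the 46 interferon-stimulated genes 22 rose and 1 fell in SC and 23 rose and 1 fell in KD. The total is about the share of all genes, but more of the list rose and less of it fell. Its median difference was 0.34 in SC and 0.42 in KD, where all genes had 0.13 and 0.05. Of the 29 sensors, relays and transcription factors 13 rose and 2 fell in SC, and 15 rose and 0 fell in KD. Of 16 macrophage and microglia markers 10 passed in SC and 8 in KD, and of 12 neutrophil markers 5 and 6, in total also near that share. By direction, 7 macrophage and microglia markers rose and 3 fell in SC, and 8 rose and 0 fell in KD. Of the neutrophil markers 4 rose and 1 fell in SC, and 5 rose and 1 fell in KD. Between KD and SC at 30 dpf none of the 22 lymphocyte, 16 macrophage and microglia or 12 neutrophil markers passed, and the mean of the macrophage list was 6.83 ± 0.07 in SC and 6.87 ± 0.12 in KD. Of 19 p53 response genes 1 rose and 2 fell at 5 dpf, and 2 fell at 10 dpf. At 15 dpf 7 rose and 1 fell, at 20 dpf 5 fell, and at 30 dpf none passed. Of all genes 5.47% rose and 6.51% fell at 5 dpf, and 0.914% fell at 10 dpf. At 15 dpf 9.18% of all genes rose and 2.84% fell, and at 20 dpf 4.31% fell. The array medians of the FinTRIM genes lay between 4.36 and 4.97, under the limit, where a median over mostly dim probe sets can show little change.

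**Figure D5:**
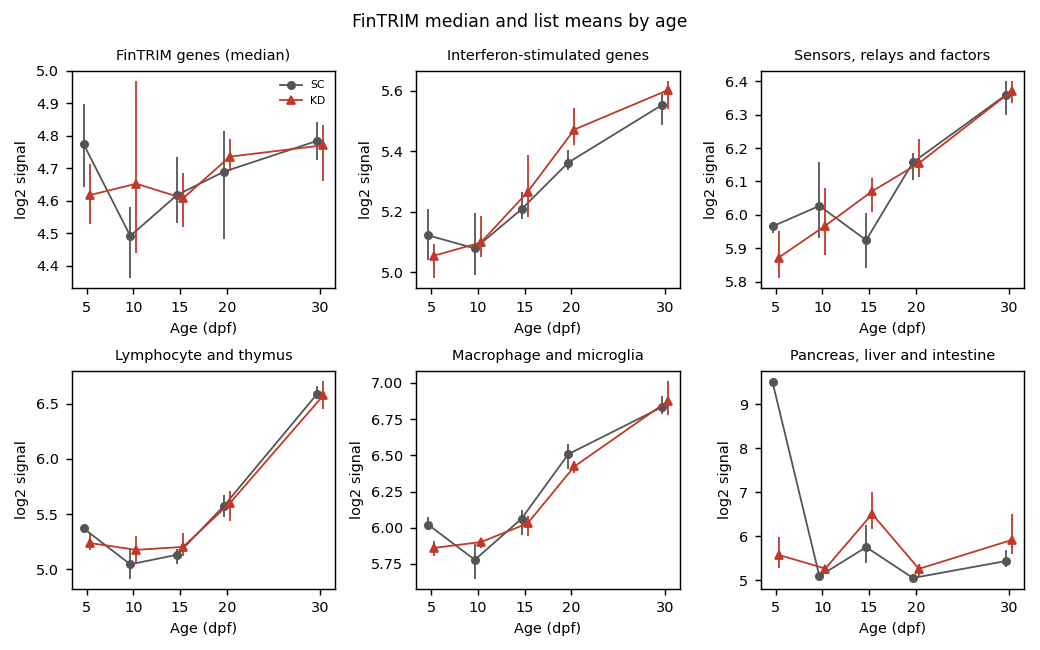
Log2 signal (vertical axis, a separate range in each panel) by age in dpf (horizontal axis) of the FinTRIM genes and 5 gene lists, with SC in grey and KD in red. Points are the mean over 3 arrays of the array's median over 54 FinTRIM genes or of the array's mean over a list, and bars run from the lowest to the highest array. The lymphocyte and macrophage means are 6.58 or more at 30 dpf in both treatments, the internal organ mean is 9.50 in SC at 5 dpf, and the FinTRIM medians lie between 4.36 and 4.97, under the limit of 6.06.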

How the data were processed

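The authors deposited log2 signals of 75212 probe sets on 30 arrays, summarised by RMA according to the submitters' processing notes. RMA's version and settings and the annotation's genome build were not given in the sources used here. No further normalization was applied. Of the probe sets, 20806 carried 1 symbol in the platform annotation, 855 several and 53551 none, and the last 2 kinds were left out of the gene tests. Where several probe sets shared a symbol the brightest was used, which left 19260 genes. Current names and neighbours came from RefSeq (GRCz12tu), and its coordinates are not given.

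All tests come from limma 3.58.1 (R 4.3.3), fitting the 10 group means to the 30 arrays at once (20 residual and 6.05 prior degrees of freedom). They are two-sided, with a threshold of 0.05 after Benjamini-Hochberg adjustment over all genes of a contrast. The contrasts were KD minus SC at each age, their mean, the F test of the 4 differences from 5 dpf, and 30 minus 5 dpf within SC and within KD. The fit was checked on simulated data with known changes. The number of arrays limits the precision.

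Members were named from the 10 brightest, those past the threshold in a contrast (up to the 10 largest), the 3 with the smallest p in the mean contrast and the F test, ftr82 to ftr84 and the 5 dimmest, and up to 4 genes of another list. Not all of these are described. Left out were ftr64 of the 10 brightest, and, from the 10 largest calls between 5 and 30 dpf, ftr26 and ftr15 in KD and ftr56 and ftr51 in SC. The call of ftr41 in SC is not described either. Other members, among them the genes of the run on chromosome 2, were chosen after their values were seen. Members and lists were chosen with earlier results of these data known. The 10 lists hold 296 genes, of which 237 were measured.

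Replicate numbers were taken from the titles. Same-numbered SC and KD arrays deviated together (r over 0.1 over genes) in 4 of 15 pairs. Differently numbered arrays were not compared, so this cannot decide whether the pools were paired. The main fit did not take the numbers to pair the pools. The alternatives tried were the test without dim genes, median centring, a robust spread with an intensity trend, a second quantile normalization, the mean of all probe sets of a gene, a replicate block, only the compared arrays, other limits, and each array left out. Added after seeing the data were the organ marker covariate, a start at 10 dpf, and fits that omit 5 dpf. Python 3.11.15 with matplotlib 3.10.9 drew the figures.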

Additional observations from a re-analysis of the deposited data

Results flagged for a closer look

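The difference between KD and SC varied with age in 4 of 54 FinTRIM genes (7.41%) by the F test of limma over the 4 differences from 5 dpf. Of all genes 31.7% passed this test, so the count does not set the family apart by its size. ftr67 had an adjusted p of 0.00575, with a rise at 5 and 15 dpf and a difference of -0.24 at 20 dpf. ftr30 had 0.0069 and ftr29 0.00809, with their largest differences at 30 dpf, 1.27 and 0.95. ftr63 had 0.0455, with -0.79 at 5 dpf and 0.12 to 0.27 at the later ages. The SC arrays at 5 dpf carried internal organ RNA (marker mean 9.50 against 5.57 in KD), and without 5 dpf ftr63 gave an adjusted p of 0.977. The others still passed without 5 dpf, ftr67 with 0.0238, ftr30 with 0.00832 and ftr29 with 0.0134. Groups of 3 arrays are too small for a test of single outlying arrays.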

How the results depend on the processing

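The counts of FinTRIM genes called between KD and SC were small and moved with most settings. At 5, 10, 15, 20 and 30 dpf they were 4, 1, 3, 1 and 2, in the mean contrast 1, in the F test 4, and 19 in SC and 16 in KD from 5 to 30 dpf. Leaving out dim genes kept 6 members in the test and gave 2, 0, 1, 0 and 1, then 0, 1, 2 and 4 in the same order. Only the compared arrays in the fit gave 2, 0, 0, 2 and 1, and the 2 at 20 dpf, both lower in KD, were other genes than ftr29. The organ marker covariate gave 0, 0, 1, 0 and 1, then 0 in the mean contrast and 0 in SC from 5 to 30 dpf. It turned ftr82 at 5 dpf to 0.19, and 2 of all 19260 genes passed at that age. For contrasts that use SC at 5 dpf that fit cannot decide, because the covariate sets this group far apart. An intensity trend with robust spread gave 0 at 20 dpf, median centring 0 at 10 dpf and a second quantile normalization 1 at 15 dpf, where it also put the median member of SC at 30 dpf at 4.84. With 10 dpf as the start ftr43 in KD turned to 0.18 (adjusted p = 0.56). The causes of these moves were not tested. The shares of all genes that passed under these settings are not given here, so the counts are not read as traits of the family. The number above the limit was 6 of 54 with the median gene as the limit, and 6 by the mean over all arrays.

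In the labels the same-numbered arrays share only a number. With a replicate block the count at 10 dpf was 0, and the other counts stayed within 1.5 times.

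With each array left out in turn the lowest and highest counts at 5 dpf were 1 and 3, at 10 dpf 0 and 1, at both 15 dpf and 20 dpf 0 and 3, and at 30 dpf 1 and 2. They ran from 1 to 2 in the mean contrast, 3 to 7 in the F test (7 without KD replicate 3 at 10 dpf) and 12 to 16 in SC from 5 to 30 dpf. The median member of a group ran from 4.40 to 4.64 in KD at 5 dpf, 4.44 to 4.57 in SC at 10 dpf and 4.66 to 4.74 in KD at 20 dpf. ftr30 at 30 dpf kept its call in each of its 6 fits without an array, and ftr03 in the mean contrast in each of 30. Most members lay under the background limit, which limits what differences in them can show.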
